A study of Mus musculus with 23 samples.

Results

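The Cyp2d genes form the 2d subfamily of the cytochromes P450, and 8 of them were followed here in mouse liver: Cyp2d9, Cyp2d10, Cyp2d11, Cyp2d12, Cyp2d13, Cyp2d22, Cyp2d26 and Cyp2d40. A probe was taken when it was no control and its gene name in the scanner files was exactly one of these names. This gave 11 probes, 1 for each of 5 genes and a pair each for Cyp2d13, Cyp2d26 and Cyp2d40. All 8 genes and all 11 probes passed the filter on dim probes, which kept 32087 of 56605 probes and 21056 of 37074 gene names. Where a gene had a pair of probes, it was read from the one with the higher mean signal, called the brightest probe below, and the other is given as the dimmer probe.

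The arrays measured liver RNA of 23 male C57Bl6/J mice, 1 array per mouse, to ask what the ligand pregnenolone 16α-carbonitrile (PCN) does to the liver with and without the pregnane X receptor (PXR, gene Nr1i2). Wild-type mice given corn oil (6 mice, called WT CONT) or PCN (5 mice, WT PCN) and mice without PXR given corn oil (6 mice, Pxr-/- CONT) or PCN (6 mice, Pxr-/- PCN) were injected intraperitoneally once a day for 4 days, PCN at 100 mg/kg in the same oil. All mice were killed 6 h after the last injection, at Zeitgeber time 6, with free access to food until then. WT mice were bought at 6 weeks of age and acclimatized for 2 weeks, whereas Pxr-/- mice, backcrossed to the same strain, had been bred for 10 years in the facility, so that genotype and colony cannot be told apart. The age of the Pxr-/- mice is not given in the sources used here. In whole liver, fewer cells of a type and less RNA per cell cannot be told apart.

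Cytochromes P450 are heme enzymes of the endoplasmic reticulum that oxidize drugs, steroids and fatty acids with electrons from P450 oxidoreductase, the product of Por. PXR is the nuclear receptor that switches on P450 genes of the 3a, 2b and 2c subfamilies when PCN or another ligand binds it. In humans the 2d subfamily is reduced to CYP2D6, which clears many medicines and is known as a P450 that the usual inducers act on little, while the mouse keeps a cluster of Cyp2d genes and pseudogenes. Among the mouse genes, Cyp2d9 encodes a testosterone hydroxylase known to be higher in male than in female liver, and Cyp2d22 is often named as the mouse counterpart of CYP2D6.

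After PCN in WT mice 2 of the 8 genes were called lower and 0 higher. Of all 21056 genes, 2.39% were called lower and 3.79% higher. By their brightest probes, Cyp2d13, annotated as a transcribed pseudogene by RefSeq, fell 1.90-fold, and Cyp2d40, annotated as protein coding, fell 1.79-fold. Their dimmer probes were lower by 1.47-fold and 1.22-fold and were not called. Cyp2d13 was called under all 14 alternative ways of processing and Cyp2d40 under 8 of 14. The call of Cyp2d40 was also lost when either of 2 single arrays was left out. No Cyp2d gene passed the test after PCN in Pxr-/- mice, and the PCN effect differed between the genotypes for Cyp2d13. On 3 of the 23 arrays, each of another group, Cyp2d9, Cyp2d12 and Cyp2d40 lay far below the other arrays of the group, and results are therefore given with and without these arrays. The 3 arrays were chosen after these values were seen. Leaving out a gene's own low values shrinks its error, so a smaller p without them is no added support.

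All 11 probes map to chromosome 15 between 82201687 and 82621829 in the build of the array files, mm9. Members of such a cluster resemble each other, so the probes that the results turn on are shown, since a shared stretch could let 1 transcript light up another gene's probe. Capitals mark the longest run shared between any of the 13 probes named for a Cyp2d gene on the array, Cyp2d34 and the pseudogene Cyp2d37-ps included, which are no members here. The probes lie at chr15:82285582-82285641 on the plus strand (Cyp2d9), chr15:82447966-82448025 on the minus strand (Cyp2d34), chr15:82388259-82388501 on the plus strand (Cyp2d12, whose 60 bases span a gap between aligned blocks), chr15:82466843-82466902 on the minus strand (Cyp2d13, brightest) and chr15:82469006-82469065 on the minus strand (Cyp2d13, dimmer).
Cyp2d9: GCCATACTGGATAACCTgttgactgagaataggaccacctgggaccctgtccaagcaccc
Cyp2d34: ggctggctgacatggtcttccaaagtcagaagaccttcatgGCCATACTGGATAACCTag
Cyp2d12: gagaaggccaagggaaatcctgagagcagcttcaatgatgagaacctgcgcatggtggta
Cyp2d13, brightest: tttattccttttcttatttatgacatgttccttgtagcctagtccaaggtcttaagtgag
Cyp2d13, dimmer: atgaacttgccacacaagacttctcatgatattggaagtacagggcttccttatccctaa
The run in capitals is 17 bases long and stands at the start of the Cyp2d9 probe and near the end of the Cyp2d34 probe. It was the only run of 12 or more bases among 78 pairs of these probes, and the pair Cyp2d10 and Cyp2d11 followed with 11. Runs that the probes share with transcripts of other genes were not searched.

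The start regions of the genes resemble each other too. RefSeq promoters of 5 of the 8 genes were at hand (GRCm38.p6), and 3 are shown over the 120 bases before the start, at chr15:82452257-82452376 on the plus strand for Cyp2d9, chr15:82394023-82394142 on the minus strand for Cyp2d11 and chr15:82764123-82764242 on the minus strand for Cyp2d40. They are shown because Cyp2d40 fell after PCN and the others did not pass the test. Capitals mark the longest run that all 5 promoters hold.
Cyp2d9: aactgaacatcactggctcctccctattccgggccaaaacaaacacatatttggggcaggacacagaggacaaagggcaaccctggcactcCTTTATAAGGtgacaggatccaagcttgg
Cyp2d11: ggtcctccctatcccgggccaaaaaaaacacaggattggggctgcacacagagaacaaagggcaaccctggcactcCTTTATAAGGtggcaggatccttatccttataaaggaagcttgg
Cyp2d40: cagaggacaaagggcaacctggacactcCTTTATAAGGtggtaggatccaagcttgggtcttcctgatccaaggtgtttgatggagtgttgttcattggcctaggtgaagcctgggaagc
The run of 10 letters, CTTTATAAGG, was held by 32 of 32851 promoters in the table (0.0974%). A longer run of 15 letters, CACTCCTTTATAAGG, was held by Cyp2d9, Cyp2d10, Cyp2d11 and Cyp2d40 and by no other promoter (4 of 32851, 0.0122%). Relative to the annotated start, the run of 10 began at position -29 in Cyp2d9, -32 in Cyp2d10 and Cyp2d26, -44 in Cyp2d11 and -92 in Cyp2d40.

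A set of 5 short motifs was searched on both strands in the 300 bases from 250 before to 50 after the start. The TATA box letters TATAAA, whose reverse complement TTTATA lies within the run in capitals, were in all 5 promoters and in 13.6% of the 32851. The nuclear receptor half-site AGGTCA was found in Cyp2d40 alone, on the reverse strand after the start (16.3% of all promoters), and its relative AGTTCA, common in PXR sites, in none of the 5 (14% of all). Neither TTCNNNGAA, the letters that STAT factors bind, nor CAAAGTCCA, a site of HNF4A, was found in any of the 5 (8.3% and 0.475% of all). A match or its absence describes these letters in this window and says nothing of the factor.

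Arrays had 29510 to 33321 of 56605 probes well above background. The label check rested on PXR targets: Cyp3a11 rose by 3.55 on the log2 scale after PCN in WT mice and differed by 0.31 in Pxr-/- mice (limma, adjusted p = 4.12e-10 and 0.431), and Cyp2c55 by 6.26 and 0.54. In control mice Cyp2c55 was already higher by 2.80 in Pxr-/- than in WT livers (limma, adjusted p = 1.53e-07). Cyp3a11 differed there by 0.69 and was not called (limma, adjusted p = 0.199). The probe of Nr1i2 itself did not separate the genotypes (-0.03 in controls, adjusted p = 0.977). The summed log2 signal of 11 hepatocyte markers lay between 20.79 and 21.03 on all arrays, and 4 of 10 stellate cell markers, Col1a1, Col1a2, Col3a1 and Lum, were called higher after PCN in each genotype. The sums of the other marker lists (Kupffer, endothelial, bile duct and immune cells, blood, pancreas) overlapped between all groups, and 1 of their genes, Sox9, was called after PCN in WT mice, higher by 0.76. For bile duct cells, WT PCN and Pxr-/- CONT overlapped through array WT PCN 4 alone (11.73, against 11.75 or less in Pxr-/- CONT). The median change of the 6 bile duct markers after PCN was 0.57 in WT and 0.61 in Pxr-/- mice. Of the hepatocyte markers, Apoa1 was called after PCN in Pxr-/- mice, higher by 0.62. The part of these cells in the results below was not tested.

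The arrays that stood apart were 3. For each array, the genes were counted in which it was the highest or the lowest of its group and passed Dixon's limit for a single outlying value. WT CONT 2, WT PCN 4 and Pxr-/- CONT 2 were the highest in 383, 300 and 318 genes, and the other 20 arrays in 57 to 164. They were the lowest in 314, 221 and 286 genes, where Pxr-/- PCN 1 had 241 and the others 25 to 139. WT PCN 4 and Pxr-/- CONT 2 lay on slide 1 in washing batch 1, and WT CONT 2 on slide 5 in batch 2. Their hepatocyte marker sums were 21.03, 20.85 and 20.94, against 20.79 to 20.93 on the other WT CONT arrays, 20.79 to 20.90 on the other WT PCN arrays and 20.85 to 20.93 on the other Pxr-/- CONT arrays. Their stellate marker sums of 15.22, 15.63 and 15.01 were each the highest of the group, the next being 14.91, 15.45 and 14.96. Some sums of other cell types lay outside the group too. The bile duct sum was 10.62 on WT CONT 2 and 11.73 on WT PCN 4, against 11.18 and 12.08 or more on the other arrays of the group. The lymphocyte sum was 10.88 on Pxr-/- CONT 2, against 10.52 or less, and 10.641 on WT PCN 4, against 10.636 or less. The endothelial sum of WT PCN 4 was 14.39, against 14.54 or more. On Pxr-/- CONT 2 the blood sum was 16.69, against 17.05 or more, and the pancreas sum 13.22, against 13.26 or more. The part of these cells in the low values was not tested.

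Cyp2d9 showed the 3 arrays most clearly. Its normalized log2 signal ran from 13.30 over a median of 14.88 to 15.03 in WT CONT mice. In WT PCN mice it was 15.14, 14.88, 15.05, 13.38 and 15.10. In Pxr-/- CONT mice it ran from 13.70 over 15.09 to 15.31, and in Pxr-/- PCN mice from 15.07 over 15.18 to 15.50. The lowest values of the first 3 groups belong to the 3 arrays named above, which lay at -1.59, -1.68 and -1.39 from their group medians, and all groups overlapped. The values that the authors deposited for the same arrays were also lowest there, at 13.29, 13.64 and 13.56, with the other arrays of these groups at 14.61, 15.15, 14.78 or more. Cyp2d9 did not pass the test for PCN in WT mice (0.10 ± 0.33, SE; 95% interval -0.59 to 0.78; limma, adjusted p = 0.871), and the value was -0.39 in washing batch 1 and 0.64 in batch 2. Without the 3 arrays the change was 0.16 ± 0.11 (SE; adjusted p = 0.329).

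**Figure D1:**
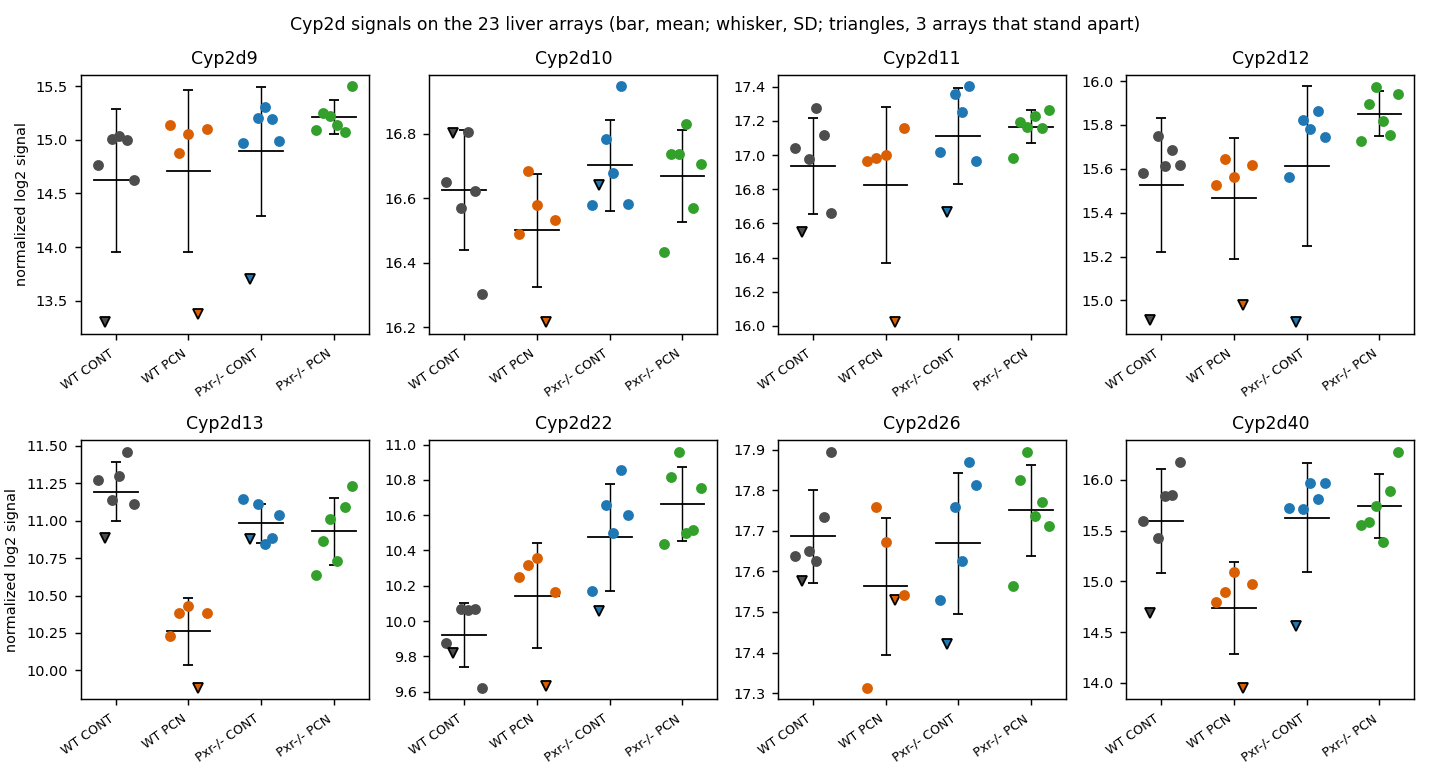
Normalized log2 signal of the 8 Cyp2d genes (vertical axes, 1 panel per gene, brightest probe) on each of the 23 arrays in the 4 groups, with bars for the group mean and whiskers for the SD. Triangles mark WT CONT 2, WT PCN 4 and Pxr-/- CONT 2, which are lowest in Cyp2d9 at 13.30, 13.38 and 13.70, and the 5 WT PCN arrays of Cyp2d13 lie below all other arrays.

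The other enzymes of the first group were less spread or shared the pattern. Cyp2d12 ran from 14.91 over 15.62 to 15.75 in WT CONT mice and from 14.90 over 15.76 to 15.86 in Pxr-/- CONT mice. It was 15.53, 15.64, 15.56, 14.98 and 15.62 in WT PCN mice, and 15.73 to 15.97 in Pxr-/- PCN mice. As with Cyp2d9, the lowest value of each of the first 3 groups stood on 1 of the 3 arrays, at -0.70, -0.59 and -0.86 from the group median. All Pxr-/- PCN arrays lay above all WT PCN arrays, but the difference of 0.38 ± 0.16 (SE) missed the adjusted threshold (limma, adjusted p = 0.157), and without the 3 arrays it was 0.26 (adjusted p = 0.0266), under 1.5-fold.

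Cyp2d11, a close relative of Cyp2d9, ranged over 16.55 to 17.28 in WT CONT, 16.02 to 17.16 in WT PCN, 16.67 to 17.40 in Pxr-/- CONT and 16.98 to 17.27 in Pxr-/- PCN mice. Its lowest value stood on WT PCN 4, at -0.96 from the group median. Cyp2d10 kept within 16.22 and 16.95 on all 23 arrays, and the 3 arrays lay at 0.17, -0.32 and -0.02 from their group medians. Neither gene was called in any comparison, and their groups overlapped in each, with pairwise changes between -0.11 and 0.33 and the largest of these, for Cyp2d11 between genotypes in PCN mice, at an adjusted p of 0.242 (limma).

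The brightest probe of Cyp2d26 kept between 17.31 and 17.90 on all arrays. The mean was 17.69 ± 0.11 (SD, n = 6) in control WT livers and 17.56 ± 0.17 (SD, n = 5) in those given PCN, and in mice without PXR it was 17.67 ± 0.17 and 17.75 ± 0.11 (SD, n = 6 each). No difference passed the test, and the 95% interval of the PCN change in WT mice, -0.28 to 0.06, lay within 1.5-fold. The dimmer probe, at other bases of the same transcript, differed by -0.02 ± 0.17 (SE) in that comparison. The probes parted on the 3 arrays, where the dimmer probe read 15.62, 15.65 and 15.57, the lowest of each group, while the brightest lay at -0.07, -0.01 and -0.27 from its group medians. Over the 23 arrays the probes of Cyp2d26 correlated at r = 0.57, those of Cyp2d13 at 0.81 and those of Cyp2d40 at 0.80, as a description of arrays that share their processing.

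Cyp2d22 had the largest difference of the 8 genes between control genotypes. Its signal ran from 9.62 over 9.97 to 10.07 in WT CONT mice and from 10.06 over 10.55 to 10.85 in Pxr-/- CONT mice, a difference of 0.56 ± 0.13 (SE), 1.47-fold, that passed neither threshold (limma, adjusted p = 0.0696). Of the Pxr-/- CONT arrays, 1 of 6 lay within the WT CONT range, Pxr-/- CONT 2 at 10.06. In PCN mice it was 10.25, 10.32, 10.36, 9.63 and 10.16 in WT and 10.44 to 10.96, with a median of 10.64, in Pxr-/- mice, so that these groups did not overlap. That difference, 0.50 ± 0.14 (SE), had an adjusted p of 0.0287 (limma) but at 1.42-fold stayed under the fold threshold. Without the 3 arrays, the difference in controls was 0.60 (adjusted p = 0.0282) and counted as called, and in PCN mice it was 0.39 (adjusted p = 0.0644). The batches differed for this gene, with 0.24 in batch 1 and 0.87 in batch 2 between control genotypes.

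Cyp2d40 separated the PCN-treated WT mice. In WT CONT mice its signal ran from 14.69 over 15.72 to 16.17. In WT PCN mice it was 14.80, 14.89, 15.09, 13.95 and 14.98. In Pxr-/- CONT mice it ran from 14.56 over 15.77 to 15.97 and in Pxr-/- PCN mice from 15.39 over 15.67 to 16.28. Apart from the low arrays WT CONT 2 and Pxr-/- CONT 2, every array of the other groups lay above every WT PCN array. The fall in WT mice was 0.84 on the log2 scale (-0.84 ± 0.26, SE; 95% interval -1.37 to -0.30; limma, adjusted p = 0.0225). The values within batches were -1.05 in batch 1 and -0.58 in batch 2, and without the 3 arrays it was -0.85 with a standard error of 0.15 (limma, adjusted p = 0.00078). These 3 arrays are the lowest of their groups in Cyp2d40 itself, so the smaller error and p without them are no added support. The call was lost without WT PCN 4 alone (-0.66) and without WT CONT 5 alone (-0.76), and also with the processed and median signals scaled to the 75th percentile (-0.67 and -0.71), with the deposited values (-0.57) and with the mean over both probes (-0.56), and over all alternatives the adjusted p ran from 0.00078 to 0.381.

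The dimmer probe of Cyp2d40 had a much lower signal and gave no call. It read 6.33, 6.64, 6.70, 5.53 and 6.12 in WT PCN mice and 5.99 to 7.11 in WT CONT mice, a difference of -0.28 ± 0.25 (SE; limma, adjusted p = 0.450). The fall of Cyp2d40 therefore rests on 1 of its probes.

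Cyp2d13 was the member with the clearest response. It ran from 10.88 over 11.21 to 11.46 in WT CONT mice, and was 10.23, 10.38, 10.43, 9.89 and 10.38 in WT PCN mice. In Pxr-/- CONT mice it ran from 10.84 over 10.96 to 11.14, and in Pxr-/- PCN mice from 10.63 over 10.94 to 11.23. All 5 WT PCN arrays lay below all 18 arrays of the other groups, which overlapped each other, so the order of the means was WT CONT, Pxr-/- CONT, Pxr-/- PCN and WT PCN with only the last set apart. The fall in WT mice was 0.93 on the log2 scale (-0.93 ± 0.12, SE; 95% interval -1.17 to -0.68; limma, adjusted p = 1.34e-05), with -1.13 in batch 1 and -0.69 in batch 2. Without the 3 arrays it was -0.90 (adjusted p = 3.15e-05).

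The dimmer probe of Cyp2d13 moved the same way, by less. The array annotation assigns it to the RefSeq transcript and the brightest probe to another transcript record. It was 9.87, 10.04, 10.01, 9.64 and 9.92 in WT PCN mice and ran from 9.90 over 10.53 to 10.80 in WT CONT mice. Only the low array WT CONT 2, at 9.90, reached into the WT PCN range. The change of -0.56 ± 0.16 (SE) had an adjusted p of 0.0153 (limma) and at 1.47-fold fell just short of the fold threshold.

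**Figure D2:**
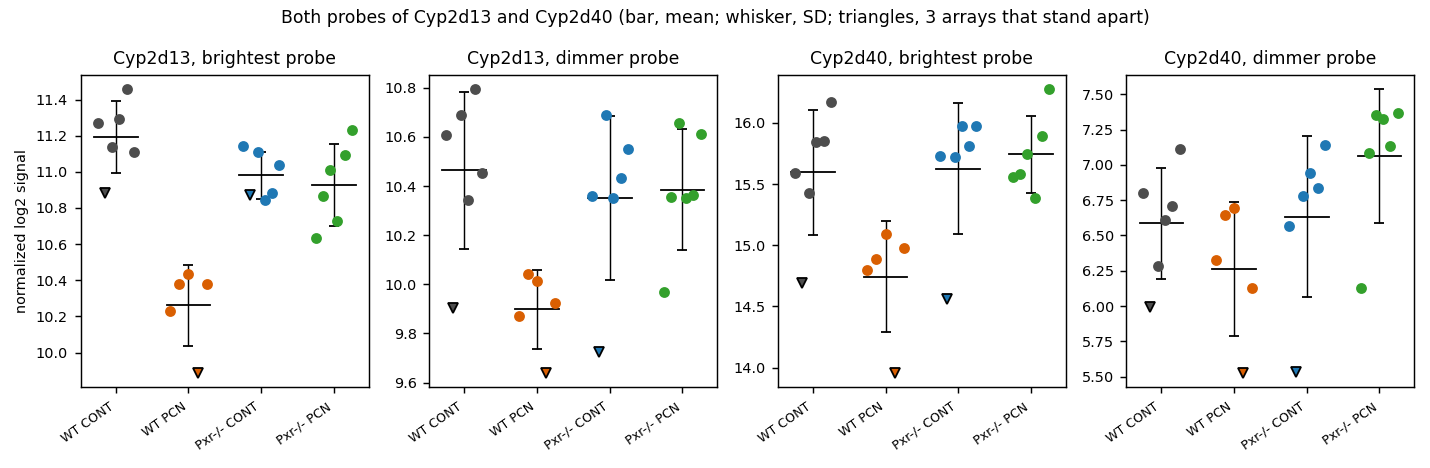
Normalized log2 signal (vertical axes) of the brightest and the dimmer probe of Cyp2d13 and Cyp2d40 on the 23 arrays in the 4 groups, with bars for the mean, whiskers for the SD and triangles for the 3 arrays that stand apart. WT PCN arrays have the lowest group mean in all 4 panels, and the change in WT mice is -0.93 and -0.56 for the probes of Cyp2d13 and -0.84 and -0.28 for those of Cyp2d40.

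Read as a family, the PCN response of WT mice was 2 of 8 genes called lower and 0 of 8 called higher, where 2.39% of the 21056 genes were called lower and 3.79% higher. At an unadjusted p under 0.05 (limma) the counts were the same. The median change of the 8 genes was -0.11 and that of all genes -0.02. The median of the 8 depended on the arrays that stood apart: it was -0.05 without the 3, 0.0036 without WT PCN 4 alone and -0.18 without WT CONT 2 alone. In 1 of 8 genes, Cyp2d13, the WT PCN arrays lay below all WT CONT arrays, as in 6.51% of all genes, and in none above, as in 5.85%.

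In Pxr-/- mice PCN called 0 of 8 genes (limma, 0 of 8 at an unadjusted p under 0.05), where 1.42% of all genes were called higher and 0.86% lower. Changes ranged from -0.05 for Cyp2d13 to 0.32 for Cyp2d9 with a median of 0.10, and in all 8 genes the groups overlapped (1.57% of all genes had Pxr-/- PCN arrays all higher and 1.58% all lower). With the 3 arrays left out the changes ran from -0.09 for Cyp2d40 to 0.12 for Cyp2d22 with a median of 0.0088, and without Pxr-/- CONT 2 alone the median was 0.0091. For Cyp2d13 the 95% interval was -0.29 to 0.18, which leaves out a fall of 1.5-fold. For Cyp2d40 it was -0.40 to 0.62.

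The difference of the PCN effects, WT minus Pxr-/-, was called for 1 of 8 genes and lower, against 0.242% of all genes lower and 0.807% higher. This was Cyp2d13, at -0.87 ± 0.16 (SE; 95% interval -1.21 to -0.54; limma, adjusted p = 0.00456), with -1.08 in batch 1 and -0.62 in batch 2, where it missed the threshold in either batch alone (adjusted p = 0.0715 and 0.231). Its dimmer probe gave -0.59 (adjusted p = 0.207). Cyp2d40 had a value of similar size and more error, -0.95 ± 0.36 (SE; 95% interval -1.69 to -0.21; adjusted p = 0.206) and -1.36 and -0.50 in the batches, so that a difference between genotypes was not shown for it. Without the 3 arrays the values were -0.83 (adjusted p = 0.0057) for Cyp2d13 and -0.76 (adjusted p = 0.0655) for Cyp2d40. The other 6 genes lay between -0.29 and 0.05, with 1 of the 8 above 0 with all arrays and 4 of 8 without the 3.

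**Figure D3:**
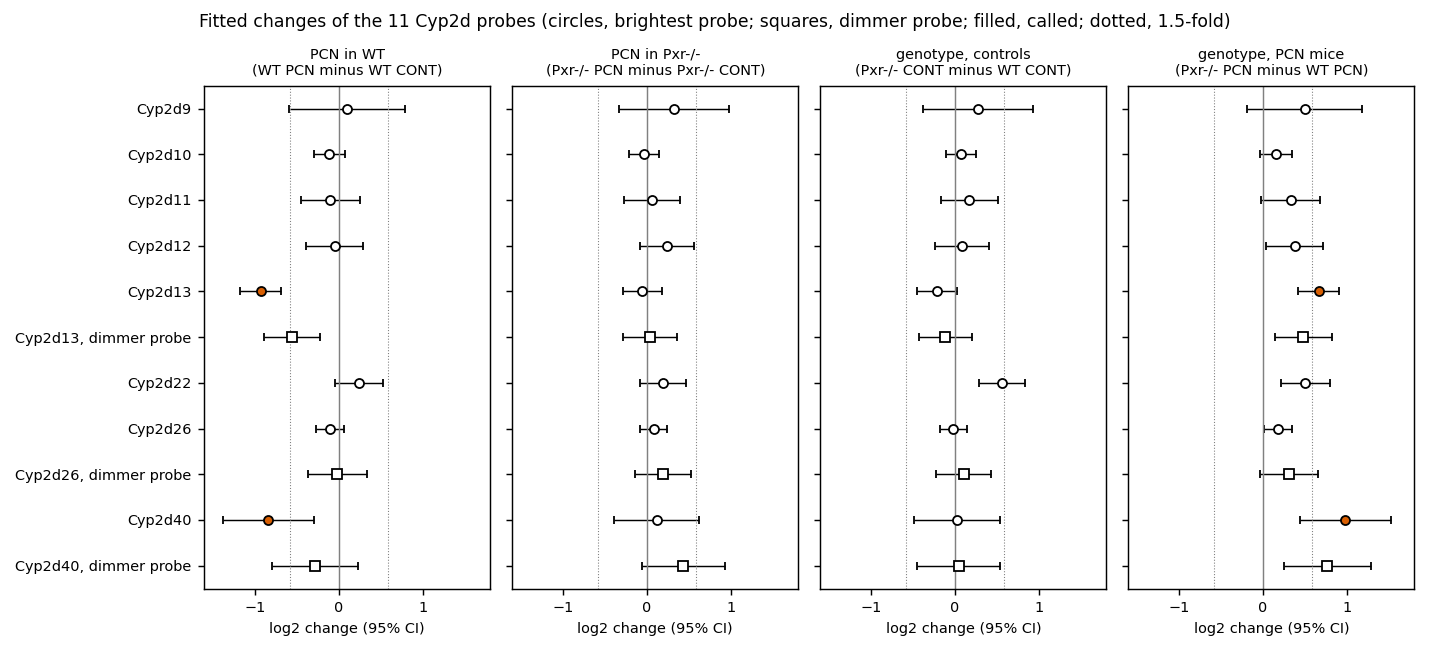
Fitted log2 change with its 95% interval (horizontal axes) of the 11 Cyp2d probes in 4 comparisons, circles for the brightest and squares for the dimmer probe, filled where called, with dotted lines at 1.5-fold. Cyp2d13 and Cyp2d40 are filled for PCN in WT mice (-0.93 and -0.84) and for genotype in PCN mice (0.66 and 0.98).

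Between genotypes, 0 of 8 genes were called in control mice (limma, 1 of 8 at an unadjusted p under 0.05, Cyp2d22), where 0.228% of all genes were called higher in Pxr-/- mice and 0.0807% lower. No gene had groups apart (0.461% of all genes higher, 0.375% lower), and the changes ran from -0.21 for Cyp2d13 to 0.56 for Cyp2d22 with a median of 0.08 (0.10 without the 3 arrays, -0.04 without WT CONT 2 alone and 0.23 without Pxr-/- CONT 2 alone). In PCN mice 2 of 8 genes were called higher in Pxr-/- mice and 0 lower, against 0.731% and 1.36% of all genes. These were Cyp2d13 at 0.66 ± 0.12 (SE; 95% interval 0.42 to 0.91; limma, adjusted p = 0.0015) and Cyp2d40 at 0.98 ± 0.26 (SE; 95% interval 0.45 to 1.52; limma, adjusted p = 0.0230). Batches 1 and 2 gave 0.75 and 0.54 for Cyp2d13 and 1.16 and 0.76 for Cyp2d40. The dimmer probes gave 0.48 for Cyp2d13 and 0.76 for Cyp2d40 (limma, adjusted p = 0.0698 and 0.0619) and were not called. The 2 calls rest on the same WT PCN arrays as the fall after PCN in WT mice and are no separate evidence of it. Without the 3 arrays Cyp2d40 was called at 0.80 (adjusted p = 0.0028), and Cyp2d13 at 0.57 (adjusted p = 0.00373) fell short of 1.5-fold. Without WT PCN 4 alone neither was called (0.57 for Cyp2d13, 0.80 for Cyp2d40), and Cyp2d40 was not called without WT PCN 2 (0.99) or Pxr-/- PCN 6 (0.89) either.

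By their brightest probes, all Pxr-/- PCN arrays lay above all WT PCN arrays in 4 of 8 genes, Cyp2d12, Cyp2d13, Cyp2d22 and Cyp2d40. Of all genes, 3.21% did so and 3.67% lay below. By the dimmer probes of Cyp2d13 and Cyp2d40 these groups overlapped. All 8 genes had a value above 0 in this comparison, with a median of 0.44 against 0.01 for all genes. Without WT PCN 4 alone, and likewise without the 3 arrays, all 8 were still above 0 and the median was 0.22. In control mice 6 of 8 were above 0. Some of the gene lists described below were also higher in Pxr-/- than in WT livers of PCN mice. There, 12 of 12 pericentral genes (median 0.21), 7 of 12 periportal genes (0.24) and 11 of 19 liver factors (0.22) were above 0. So were 44 of 71 other P450 genes (median 0.09) and 14 of 32 neighbours of the cluster (-0.02). The share of called genes that were higher depended on the scaling: with the values that the authors deposited, 5.02% of the calls in this comparison were higher against 34.9% here, 84.3% against 61.3% for PCN in WT mice, 73.6% against 62.4% for PCN in Pxr-/- mice, 87.7% against 76.9% for the difference of the PCN effects, and 45% against 73.8% between control genotypes. Those values put the median of all genes at -0.19 in PCN mice and at 0.12 for PCN in WT mice, and relative to these medians Cyp2d13 and Cyp2d40 differed by 0.61 and 0.89 between genotypes in PCN mice and by -0.89 and -0.69 after PCN in WT mice. On these values, of the differences just named, the one of Cyp2d13 in WT mice alone was called.

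The genes differed in how they varied over the 23 arrays once batch means were removed, and the correlations below describe arrays that share groups and processing. Cyp2d9 was most like Cyp2d34 (r = 0.99), the gene whose probe shares the 17 bases with its own. On WT CONT 2, WT PCN 4 and Pxr-/- CONT 2 the Cyp2d34 signal was 8.79, 9.06 and 9.39, and on the other 20 arrays 10.23 or more. Without the 3 arrays that r was 0.89. Cyp2d12 was likewise most like Cyp2d34 (r = 0.94, and 0.63 without the 3 arrays), and these probes share no run of 12 bases. Since probes were compared with probes only, whether a transcript of 1 gene reaches the probe of another was not tested for either pair. Cyp2d34 itself was not called in any comparison, with changes from -0.11 to 0.49.

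**Figure D4:**
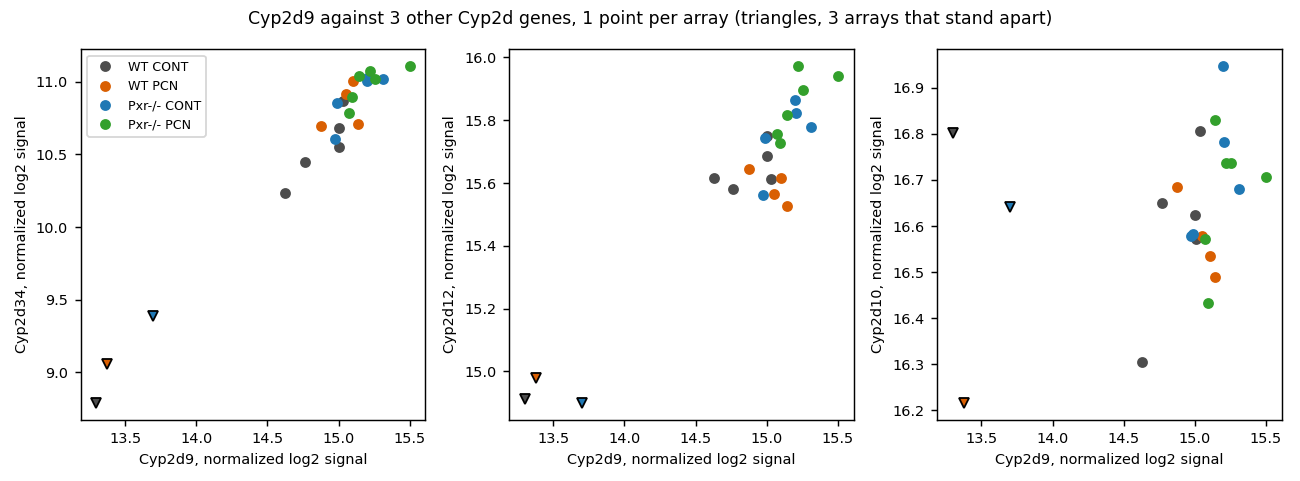
Normalized log2 signal of Cyp2d9 (horizontal axes) against Cyp2d34, Cyp2d12 and Cyp2d10 (vertical axes), 1 point per array coloured by group, with triangles for the 3 arrays that stand apart. Cyp2d9 goes with Cyp2d34 (r = 0.99 with all arrays, 0.89 without the triangles) and with Cyp2d12 (0.95 and 0.68), and the triangles are not low in Cyp2d10 as a set (r = 0.29 and 0.53).

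Cyp2d11 was closest to Mdga2 (r = 0.91), Slc4a2 (0.91) and Cyp2d34 (0.87), and these values were 0.76, 0.75 and 0.75 without the 3 arrays. Cyp2d10 was closest to Dock3 (0.86) and Zcchc24 (0.82), and among members to Cyp2d11 (0.67, and 0.88 without the 3 arrays). Cyp2d40 was closest to Dhrs1 (0.88), Slc46a3 (0.87) and Smarcd2 (0.87), and its r with Cyp2d9 went from 0.71 to 0.12 when the 3 arrays were left out. The r between Cyp2d13 and Cyp2d40 was 0.77, and 0.82 without the 3 arrays.

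Cyp2d13 was closest to AW549542 (0.94), Ppara, the gene of the fatty acid receptor PPARα (0.93), and Rasal2 (0.92), with 0.93, 0.93 and 0.91 without the 3 arrays. These likenesses include the group differences: with group means removed too, they were 0.83, 0.65 and 0.69. Cyp2d22 was closest to Ahcy (0.92), which encodes the hydrolase of S-adenosylhomocysteine, and Tecr (0.88), and Cyp2d26 to Tollip (0.77). With group means removed too, these were 0.77, 0.54 and 0.65.

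The neighbours of the cluster served as a comparison by position. Of 32 other genes with a kept probe within 500 kb, 1 was called after PCN in WT mice, the centromere gene Cenpm, which rose by 0.76 (limma, adjusted p = 0.00296), and 0 fell (7 higher and 5 lower at an unadjusted p under 0.05). Their median change was 0.03. The pseudogene Cyp2d37-ps, which lies in the cluster and is no member, differed by -0.43 (adjusted p = 0.0490), under 1.5-fold.

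Larger changes were found among the other P450 genes. Of 71 kept, 18 rose and 8 fell after PCN in WT mice, with a median change of 0.08, and 3 rose and 1 fell in Pxr-/- mice. Some of the 71 passed the filter on dim probes through a single group, Cyp3a44 among them through WT PCN, so these counts are descriptions. Cyp2b10 rose by 6.76 and Cyp2b9 by 6.43 in WT mice (limma, adjusted p = 9.53e-07 and 5.47e-07), whereas no Cyp2d gene passed the test upward. The difference between genotypes of the PCN effect was called higher for 12 and lower for 3 of the 71.

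Some genes for electron transfer to P450 enzymes and for the making or breakdown of heme rose. Of 13 genes for electron transfer and heme supply, 3 rose after PCN in WT mice and 0 fell (6 and 2 at an unadjusted p under 0.05, limma): Por by 1.04, Alas1, the first enzyme of heme synthesis, by 0.70, and Hmox1, which breaks heme down, by 0.59. Por also rose by 0.62 in Pxr-/- mice. The difference between genotypes was called for none of the 13 (4 at an unadjusted p under 0.05), and their median change in WT mice was 0.01.

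Among 19 liver transcription factors and receptors known to act on P450 genes, 2 rose and 2 fell after PCN in WT mice. Cux2, a repressor known to be higher in female liver, stood well above background in 0 of 6 WT CONT and 4 of 5 WT PCN mice. In Pxr-/- mice it did so in 1 of 6 given oil and 0 of 6 given PCN. Its probe thus passed the filter on dim probes through WT PCN alone, the group where it is high. Its call among the 2 that rose is therefore a description (limma, adjusted p = 0.0253). The WT PCN mean was 2.62-fold above that of WT CONT, taken at the lowest signal well above background on each array or the probe's own where higher. This figure leaves out the error of the fitted change (1.49 ± 0.47, SE). Cebpb rose by 0.68 (adjusted p = 0.0122). Nr0b2, the small heterodimer partner that is known to repress CYP2D6 through HNF4A, fell by 1.03 (adjusted p = 0.0296), and Cebpa by 0.72 (adjusted p = 0.000201). Hnf4a itself differed by -0.00043 in WT mice and by 0.36 in Pxr-/- mice (adjusted p = 0.998 and 0.0371), the latter under 1.5-fold. The difference of the PCN effects was called for Nr1i3, the gene of the receptor CAR (-1.27; limma, adjusted p = 0.0213), and Nr1h4, that of the bile acid receptor FXR (-0.62; adjusted p = 0.0213). Nr1i3 differed by -0.30 in WT mice (adjusted p = 0.315) and rose by 0.97 in Pxr-/- mice (adjusted p = 0.00531), whereas Nr1h4 was called in neither genotype alone (-0.35 and 0.26). In Pxr-/- mice 2 of the 19 rose, Nr1i3 and Foxa3 (0.67, adjusted p = 0.0251), and 0 fell. The median of the 19 was -0.24 in WT mice.

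Since Cyp2d9 is known as a male-biased gene, lists of sex-biased liver genes were read beside it. Of 19 genes known to be higher in male liver, 0 rose and 4 fell after PCN in WT mice, with a median of -0.30, among them Hsd3b5 by 1.52, Slco1a1 by 0.90 and Nudt7 by 0.80. After PCN in Pxr-/- mice 0 of these 19 rose and 1 fell, Ugt2b1 by 0.67, with a median of -0.22. The difference of the PCN effects was called for 0 of these 19 (limma, 3 at an unadjusted p under 0.05). Of 13 kept genes known to be higher in female liver, 5 rose and 0 fell after PCN in WT mice, with a median of 0.22. In Pxr-/- mice 0 rose and 0 fell, with a median of 0.10. Cyp3a44, 1 of the 5, stood well above background in 3 of 5 WT PCN mice and in 0 of every other group. It thus passed the filter on dim probes through WT PCN alone, which tilts the count of 5 towards a rise. The same filter dropped the rest of the 18 listed genes. The members of this list with the largest rise were P450 genes that PXR is known to induce, Cyp2b9 (6.43), Cyp3a16 (3.16) and Cyp3a41a (1.61). Cyp2d9 itself differed by 0.10 and was not called.

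Genes that mark the zones of the liver lobule were read too. Of 12 pericentral hepatocyte genes 0 were called after PCN in WT mice (limma, 2 higher and 5 lower at an unadjusted p under 0.05; median change -0.22), and of 12 periportal genes 1 rose and 2 fell (median -0.18). In Pxr-/- mice 2 pericentral genes rose after PCN, Slc13a3 by 1.28 and Cyp1a2 by 0.85, and 0 fell (median 0.24), and 0 periportal genes rose and 2 fell (Etnppl -1.32, Gls2 -0.76; median -0.14). The difference of the PCN effects was called for 1 of the 24, Slc13a3 (-1.83). In PCN mice 4 pericentral and 2 periportal genes were higher in Pxr-/- than in WT livers, and 0 of either were lower.

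**Figure D5:**
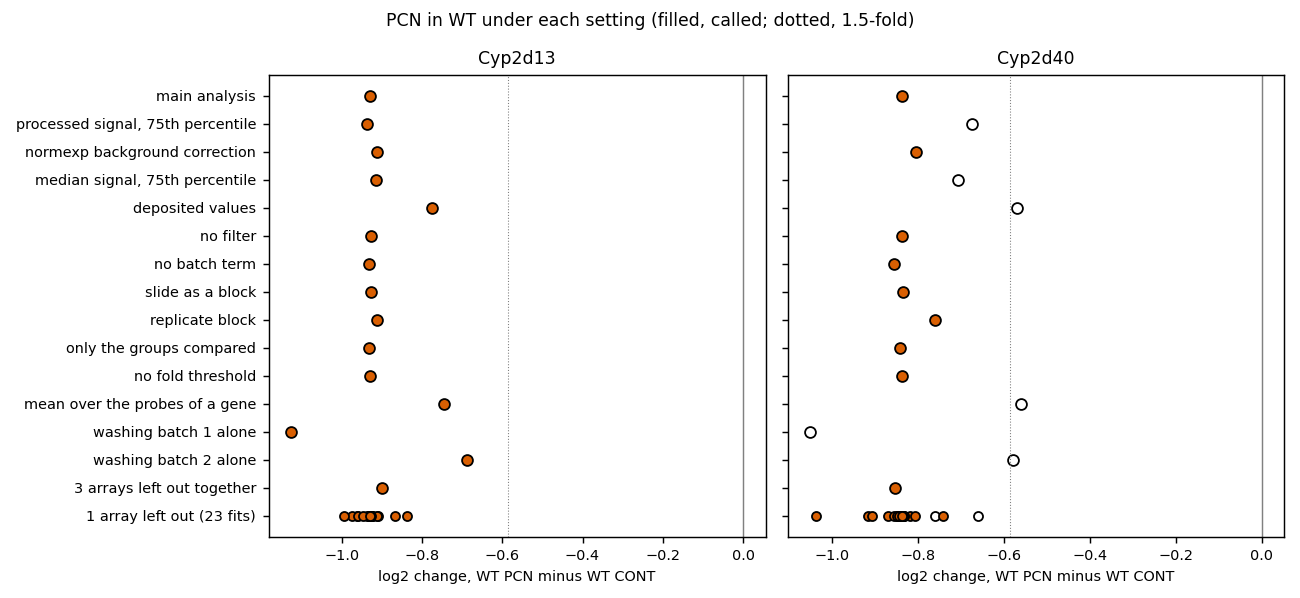
Log2 change after PCN in WT mice (horizontal axes) of Cyp2d13 and Cyp2d40 under each way of processing (vertical axis), filled where called, with a dotted line at 1.5-fold. Cyp2d13 was called under all 14 alternatives, from -1.13 to -0.69, and Cyp2d40 under 8 of 14, from -1.05 to -0.56.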

How the data were processed

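Liver RNA of 23 mice was hybridised to Agilent 1-colour arrays. Per the file headers and the submitters' processing notes, the scanner files give the linear intensity of each spot from Agilent Feature Extraction (10.10.1.1), not normalized between arrays. The authors also deposited log2 values (32574 probes, column medians 7.54 to 8.01), which by their methods came from filtered median signals after a washing batch correction and CrossNorm normalization, and how arrays were grouped in that step is not given in the sources used here. These served as an alternative. No column of another sample was present (0).

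Control spots were left out, 2225 outlier spots were set to missing, spots of a probe were averaged, and a probe was kept when well above background on over 50% of the arrays of a group. The log2 median signal was quantile normalized. All arrays entered 1 limma fit (3.58.1, R 4.3.3, with the package data.table in version 1.17.8) with 4 groups and the washing batch (18 residual degrees of freedom). Each batch held 3 arrays of every group, except 2 WT PCN arrays in batch 2. P-values were adjusted by Benjamini-Hochberg over all probes. Calls needed an adjusted p no higher than 0.05 and a change over 1.5-fold, and genes were counted by their brightest probe. The fit was tested on simulated data. Changes are fitted, so they can differ slightly from differences of means.

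The 8 genes and all gene lists were chosen with earlier results of these data known, and list counts are descriptions. Besides the 8 genes, text names in each list up to the 3 called genes with the largest change, and for each of the 8 the most alike genes among 15050 with a RefSeq name. Genes outside this rule (Cebpb, Hnf4a, Lum, Cyp3a44, Cyp2d34, Cyp2d37-ps) were chosen after their values were seen. The main fit did not use the numbers of replicates to pair the samples. Of 33 same-numbered pairs, 11 had deviations correlated over 0.1 (r from -0.25 to 0.49). Pairs with different numbers were not compared, so these values cannot decide whether the numbers pair the mice. The number of arrays limits the precision.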

Additional observations from a re-analysis of the deposited data

Results flagged for a closer look

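Among 44 sets of arrays (11 Cyp2d probes in 4 groups), 16 had a lowest array farther from the others than Dixon's 95% limit. Chance puts about 1 in 20 groups past this limit when the lowest and the highest array both count, so fewer by the lowest alone. The 11 probes were read on the same arrays, so the 44 sets are not independent. In 15 of the 16 the array was WT CONT 2, WT PCN 4 or Pxr-/- CONT 2. WT CONT 2 was low in Cyp2d9 (13.30), Cyp2d12 (14.91) and the dimmer probe of Cyp2d26 (15.62). WT PCN 4 was low in Cyp2d9 (13.38), Cyp2d11 (16.02), Cyp2d12 (14.98), Cyp2d22 (9.63), the dimmer probe of Cyp2d26 (15.65) and the brightest of Cyp2d40 (13.95). Pxr-/- CONT 2 was low in Cyp2d9 (13.70), Cyp2d12 (14.90), the dimmer probes of Cyp2d13 (9.72) and Cyp2d26 (15.57), and both probes of Cyp2d40 (14.56 and 5.53). The remaining value, 6.13 for the dimmer probe of Cyp2d40, stood on Pxr-/- PCN 1. Cyp2d10 and the brightest probes of Cyp2d13 and Cyp2d26 had no such array.

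The effect of PCN differed between the genotypes for Cyp2d13, by -0.87 on the log2 scale (WT minus Pxr-/-, limma interaction, adjusted p = 0.00456).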

How the results depend on the processing

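Counts of called Cyp2d genes were 2 for PCN in WT mice, 0 for PCN in Pxr-/- mice, 1 for the difference of these effects, 0 for genotype in controls and 2 for genotype in PCN mice. For PCN in WT mice the count was 1 with the processed or the median signal scaled to the 75th percentile, the deposited values, the mean over the probes of a gene, and either washing batch alone. The difference of the effects was called for 0 genes in either batch alone. In controls the count was 1 in batch 2 alone and without the 3 arrays, an alternative chosen after seeing the data. In PCN mice it was 0 with the deposited values and in batch 2 alone, and 1 with the mean over probes, in batch 1 alone and without the 3 arrays. With 1 array left out it ran from 1 to 2 for PCN in WT mice (1 without WT PCN 4 or WT CONT 5), from 0 to 1 in controls (1 without Pxr-/- CONT 2) and from 0 to 2 in PCN mice (0 without WT PCN 4, 1 without WT PCN 2 or Pxr-/- PCN 6). A batch alone has fewer arrays, and the cause of the other changes was not tested.

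Cyp2d13 in WT mice was called under all 14 alternatives and with any 1 array left out (-0.99 to -0.84), and the difference of its PCN effects under 11 of 13. Both counts include no fold threshold, which cannot lose a call, and the 3 arrays left out together, which was chosen after seeing the data. With the replicate block Cyp2d13 and Cyp2d40 changed by -0.91 and -0.76 in WT mice, and no Cyp2d call changed. The normexp background correction, no filter, no batch term, the slide as a block (correlation 0.0095) and only the groups compared changed no count of Cyp2d genes, and no fold threshold added Cyp2d22 in PCN mice (3). Over all genes, in the order of comparisons above, calls numbered 1302, 481, 221, 65 and 441, without the fold threshold 5064, 1445, 329, 104 and 1871, in batch 1 alone 1533, 55, 84, 9 and 280, and in batch 2 alone 689, 93, 91, 49 and 118. They numbered 1095 in PCN mice with the deposited values, 42 in controls with only the groups compared, and 311 for PCN in Pxr-/- mice without Pxr-/- PCN 4. Depth is not counted on arrays, and Cyp2d40's dimmer probe, at 5.53 to 7.37, had the lowest signal of the 11.

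Changes of sign were all among genes not called in that comparison. For PCN in WT mice they were 0.057 and 0.045 for Cyp2d12 with the processed and median signals, 0.098, 0.074 and 0.18 for Cyp2d10, Cyp2d11 and Cyp2d12 with the deposited values, -0.39 for Cyp2d9 in batch 1, 0.16, 0.22 and 0.017 for Cyp2d11, Cyp2d12 and Cyp2d26 in batch 2, and 0.0089 for Cyp2d11 without the 3 arrays. For PCN in Pxr-/- mice they were 0.0073 for Cyp2d10 with the deposited values, -0.011, -0.013, -0.055 and -0.084 for Cyp2d11, Cyp2d22, Cyp2d26 and Cyp2d40 in batch 2, and -0.029 and -0.088 for Cyp2d11 and Cyp2d40 without the 3 arrays. For the difference of the effects they were 0.012, 0.0090 and 0.091 for Cyp2d10 with the processed, median and deposited values, -0.38 for Cyp2d22 in batch 1, 0.47, 0.0074, 0.17, 0.15 and 0.072 for Cyp2d9, Cyp2d10, Cyp2d11, Cyp2d12 and Cyp2d26 in batch 2, and 0.078, 0.0063 and 0.037 for Cyp2d9, Cyp2d10 and Cyp2d11 without the 3 arrays. In controls they were 0.068, 0.029 and 0.043 for Cyp2d26 with the processed signal, the median signal and the mean over probes, -0.027 for Cyp2d40 with the deposited values, -0.26, -0.066, -0.26 and -0.21 for Cyp2d9, Cyp2d11, Cyp2d12 and Cyp2d40 in batch 1, and 0.11 for Cyp2d26 in batch 2. In PCN mice it was -0.060 for Cyp2d10 with the deposited values.

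Leaving out 1 array turned the sign of others. For PCN in WT mice Cyp2d9 ran from -0.18 to 0.42, Cyp2d11 from -0.19 to 0.090 and Cyp2d12 from -0.18 to 0.061. In Pxr-/- mice Cyp2d10 ran from -0.072 to 0.0047, Cyp2d11 from -0.026 to 0.11, Cyp2d13 from -0.12 to 0.0048 and Cyp2d40 from -0.091 to 0.21. For the difference of the effects Cyp2d9 ran from -0.50 to 0.10, Cyp2d11 from -0.25 to 0.033 and Cyp2d22 from -0.025 to 0.16. In controls Cyp2d9 ran from -0.017 to 0.52, Cyp2d10 from -0.0061 to 0.12, Cyp2d12 from -0.054 to 0.23, Cyp2d26 from -0.056 to 0.020 and Cyp2d40 from -0.18 to 0.24.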
